A study of Mus musculus with 12 samples.

Results

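The genes described here encode subunits of respiratory complexes II, III, IV and V, together with cytochrome c, measured in mouse white gastrocnemius, the pale and mostly fast-fibred portion of this calf muscle. They were chosen by symbol: every probe set whose platform annotation names 1 gene with a symbol starting Sdha to Sdhd, Uqcr, Cox4 to Cox8 or Atp5, or equal to Cyc1 or Cycs. This gave 50 genes read by 90 probe sets, of 12393 genes and 22626 probe sets tested, and where a gene had several probe sets the brightest over the 12 arrays stood for it. Of the 50 genes, 4 belong to complex II, 10 to complex III and cytochrome c, 16 to complex IV and 17 to complex V. The symbol rule also took 3 genes that are not subunits, Sdhaf1, Sdhaf2 and Sdhaf4, which encode assembly factors of complex II and are set apart.

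Complexes II, III and IV pass electrons from succinate and ubiquinol through cytochrome c to oxygen, and complexes III and IV pump protons as they do so. Complex V, the ATP synthase, lets the protons return and makes ATP. Nearly all subunits are encoded in the nucleus, and slow and oxidative fibres hold more of these complexes than fast glycolytic fibres do.

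Total RNA was measured on 12 Affymetrix MOE430A arrays, on which each probe set reads a stretch of transcript. The knockout group held 6 mice without AMPK gamma3, the regulatory subunit that the AMP-activated protein kinase, a sensor of cellular energy, carries mostly in fast glycolytic fibres. The wild type group held 6 of their littermates. Both groups were males of the strain C57BL/6 in generation F7, 14 weeks of age, kept without food overnight before sampling. The design names the mice of a group as biological replicates. The comparison asks which transcripts differ without gamma3, and the targeted transcript itself, from Prkag3, was not analysed here. In whole muscle pieces, fewer fibres of a type and less RNA per fibre cannot be told apart.

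Levels are log2 of the intensities the authors made with RMA. A change is the knockout mean minus the wild type mean, with its standard error (SE) from a limma fit of 6 against 6 arrays. The median intensity of an array was 132.5 to 139.8, pairs of arrays correlated at 0.991 to 0.997 with 0 identical pairs, and the number of arrays limits the precision. The array records give a hybridization date and time, and arrays sharing the same hour were taken here as a fluidics run. This gave 3 runs of 4 arrays, with each genotype on 2 arrays of a run. The fast fibre myosin Myh4 was bright at a mean log2 intensity of 13.5. Slow fibre genes varied widely between mice. The mean level of 13 such genes, each centred on its 12-array mean, spanned -0.57 to 0.74 in knockout and -0.52 to 0.76 in wild type.

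Subunit transcripts of all 4 complexes lay slightly lower in the knockout, and no single gene passed the test. Of the 50 genes 42 had a lower mean in knockout and 8 a higher one, where 52.6% of all genes and 47.5% of genes above the median level had a lower one, and the median change was -0.059, or a level 4.01% lower, against a median of -0.0043 over all genes. None of the 50 passed an adjusted p of 0.05, a threshold that 0.0133% of all probe sets and 0.0242% of all genes passed, and the smallest adjusted p was 0.707. At an unadjusted p under 0.05, 9 genes lay lower and 0 higher, against 2.86% of all genes lower and 3.37% higher. The genotypes did not overlap in 1 gene, Atp5g1, with knockout the lower, as in 0.153% of all genes. Because the 50 genes share the same 12 arrays and vary together, these counts are descriptions and carry no test.

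The median SE was 0.0505 for these genes and 0.0593 over all genes, and the median SD within a genotype was 0.0745 against 0.102. The 95% intervals reached no lower than -0.29, a level 18.3% lower, and no higher than 0.17, a level 12.2% higher. For 9 genes the interval lay wholly below 0 and for 0 genes wholly above it. Leaving out 1 array moved the change of 33 of the 50 genes by over 1.5 times in at least 1 case, and 0 of the 9 with an unadjusted p under 0.05 were among them. A change near 0 easily moves by such a factor, and the 9 were picked here for changes large beside their SE. This count is therefore largely set by that choice and does not test the 9.

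**Figure D1:**
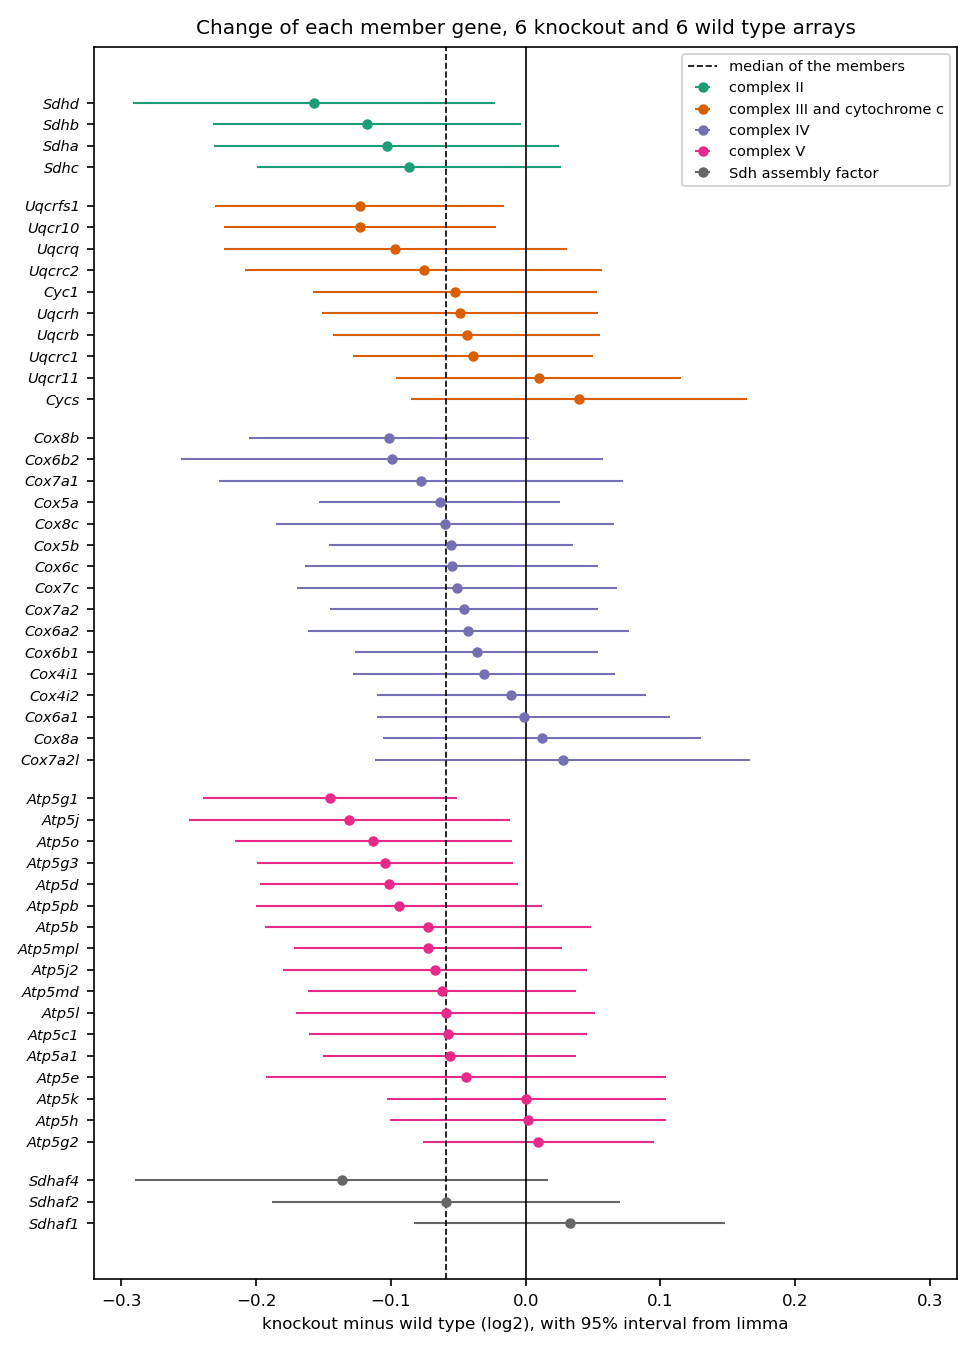
Change of each of the 50 genes (points, knockout minus wild type on the log2 scale) with its 95% interval from limma over 6 against 6 arrays, grouped by complex. Of the points 42 lie below 0, the dashed line marks the median of -0.059, and all 4 complex II genes lie left of it.

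Complex II, succinate dehydrogenase, oxidises succinate in the tricarboxylic acid cycle and hands the electrons to ubiquinone, and all of its subunits are nuclear. All 4 of its genes lay lower and the median change was -0.11, or a level 7.36% lower. Sdhd encodes a membrane anchor of the complex. On the knockout arrays Sdhd had a lowest, median and highest log2 level of 11.45, 11.51 and 11.67, and on the wild type arrays 11.51, 11.68 and 11.91. The genotypes overlapped, though 6 of 6 knockout arrays lay below the wild type median, and the change was -0.16 ± 0.0637 (SE; adjusted p = 0.801). A dimmer Sdhd probe set gave 0.020.

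Sdhb, the iron-sulphur subunit, ran from 12.08 to 12.25 in knockout (median 12.22) and from 12.14 to 12.43 in wild type (median 12.33). Its change was -0.12 ± 0.0541 (SE; adjusted p = 0.818). Again the genotypes overlapped, with 1 knockout array under the whole wild type range. The flavoprotein subunit Sdha gave -0.10 ± 0.0607, and its second probe set -0.12, and without knockout replicate 2 the first gave -0.059. The anchor Sdhc gave -0.086 ± 0.0534, and its second probe set -0.046, and without knockout replicate 5 the first gave -0.056. Of the assembly factors, Sdhaf4, which protects the flavoprotein during assembly, gave -0.14 ± 0.0726 (-0.082 without knockout replicate 2), Sdhaf2, which helps attach its flavin, -0.059, and Sdhaf1, which helps mature the iron-sulphur subunit, 0.033.

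The promoter of Sdhd is shown because this complex II gene is among the 9 with an unadjusted p under 0.05 and its window held matches to 2 motifs linked to respiratory genes. The window is on chromosome 9 at chr9:50603800-50604099, minus strand (RefSeq, GRCm38.p6), from 250 bases before to 50 after the start, and capitals mark matches on either strand to the motif of NRF1, nuclear respiratory factor 1, the first run of capitals, and to TCAAGGTCA of the estrogen-related receptors (ERR), the other run.
Sdhd: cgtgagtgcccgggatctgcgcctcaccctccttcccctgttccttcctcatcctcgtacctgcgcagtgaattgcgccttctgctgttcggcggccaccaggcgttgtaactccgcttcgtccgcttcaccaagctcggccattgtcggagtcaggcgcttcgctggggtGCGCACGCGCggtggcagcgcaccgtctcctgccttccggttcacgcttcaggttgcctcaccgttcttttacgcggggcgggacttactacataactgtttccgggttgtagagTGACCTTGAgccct

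Complex III takes electrons from ubiquinol and passes them to cytochrome c. Of its genes and cytochrome c, 8 of 10 lay lower and the median change was -0.051, or a level 3.44% lower. Uqcr10, a small subunit, lay between 11.88 and 12.11 in knockout (median 11.99) and between 12.07 and 12.15 in wild type (median 12.12). Only 1 of the 6 knockout arrays reached into the wild type range, and the change was -0.12 ± 0.0478 (SE; adjusted p = 0.783), with -0.046 and -0.055 at its dimmer probe sets. Uqcrfs1, the Rieske iron-sulphur protein, lay between 11.89 and 12.04 in knockout (median 11.98) and between 11.95 and 12.19 in wild type (median 12.12), a change of -0.12 ± 0.0508 (SE; adjusted p = 0.81). For Uqcrfs1 2 knockout arrays were under the wild type range.

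The remaining complex III genes had smaller point estimates at their brightest probe sets. The small subunits Uqcrq, Uqcrh and Uqcrb gave -0.097, -0.049 and -0.044, the core proteins Uqcrc2 and Uqcrc1 -0.076 and -0.039, and Cyc1, a cytochrome of the complex, -0.052. Dimmer probe sets gave -0.012, 0.030 and 0.0077 for Uqcrq, 0.039 for Uqcrb and -0.019 for Uqcrc2. Uqcr11, another small subunit, gave 0.0098. Cycs, the mobile cytochrome c, was higher by 0.040 ± 0.0591 at its brightest probe set, with log2 levels from 11.77 to 11.99 in knockout and from 11.73 to 12.07 in wild type. Its other probe sets gave -0.15 (adjusted p = 0.781) and -0.057, so the sign for Cycs depends on the probe set.

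Complex IV, cytochrome c oxidase, reduces oxygen, and its nuclear subunits surround a core that mitochondrial DNA encodes. Of its 16 genes 14 lay lower and the median change was -0.048, or a level 3.28% lower, and 0 had an unadjusted p under 0.05. Without knockout replicate 6 this median was -0.031. Cox8b, the heart and muscle form of a small subunit, had the smallest p of the complex. Its knockout arrays ran from 12.23 to 12.45 (median 12.28) and its wild type arrays from 12.35 to 12.46 (median 12.43), a change of -0.10 ± 0.0492 (SE; adjusted p = 0.832). The genotypes overlapped, and 4 knockout arrays were under the wild type range. Cox5a, a subunit on the matrix side, ran from 12.98 to 13.09 in knockout (median 13.02) and from 13.04 to 13.16 in wild type (median 13.08). Its change was -0.064 ± 0.0423 (SE; adjusted p = 0.898), and 5 of 6 knockout arrays were under the wild type range.

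Among other complex IV genes, Cox5b gave -0.055, Cox6c -0.055 and Cox6b1 -0.036. A dimmer Cox6c probe set gave 0.10, and that of Cox6b1 gave -0.060. Cox7a2l, a gene linked to the joining of complexes III and IV into supercomplexes, gave 0.027 and, at its dimmer probe sets, 0.023 and 0.11. Cox6b2 and Cox8c, forms known from testis, gave -0.099 and -0.060. Cox7c was read only by dim probe sets, the brighter with levels from 5.62 to 5.91 over the knockout arrays, and gave -0.051 and 0.060. Without Cox7c, the testis forms and the assembly factors, a choice made after seeing the data, 37 of 44 genes were lower, with a median of -0.058.

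Several complex IV subunits come as a form of contractile muscle and a form found in most tissues. At the brightest probe sets the point estimate was lower for Cox6a2, Cox7a1 and Cox8b than for the forms they are paired with. No difference between these forms passed. A dimmer Cox6a1 probe set gave -0.091, lower than Cox6a2, so the order in that pair depends on the probe set. That of Cox7a2 gave -0.061. Cox6a2, the muscle form, ran from 12.60 to 12.90 in knockout and from 12.79 to 12.93 in wild type (change -0.042 ± 0.0565), and Cox6a1 from 10.14 to 10.36 and from 10.13 to 10.34 (change -0.0016 ± 0.0514). Knockout replicate 6 alone lay below the wild type range for Cox6a2, and without it the change was 0.0038. Cox7a1, the muscle form, ran from 11.00 to 11.31 and from 11.03 to 11.45 (change -0.077 ± 0.071), and Cox7a2 from 12.48 to 12.68 and from 12.54 to 12.66 (change -0.046 ± 0.0472). Without wild type replicate 6 the change of Cox7a1 was -0.026 and without knockout replicate 5 it was -0.12, and without knockout replicate 6 that of Cox7a2 was -0.029.

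The counterpart of Cox8b, Cox8a, ran from 10.61 to 10.87 in knockout and from 10.62 to 10.80 in wild type (change 0.012 ± 0.056) and its dimmer probe sets gave -0.053 and -0.018. Cox4i1, the usual form of subunit IV, ran from 12.54 to 12.68 and from 12.56 to 12.74 (change -0.031 ± 0.0459, or -0.0085 when wild type replicate 5 was omitted and -0.048 when knockout replicate 5 was), and Cox4i2, a form known from lung, from 6.995 to 7.19 and from 7.07 to 7.20 (change -0.011 ± 0.0473). The muscle or usual form minus the other form differed between genotypes by -0.11 for Cox8b and Cox8a (95% interval -0.27 to 0.047; two-sided exact permutation test over 6 against 6 arrays, p = 0.143), by -0.041 for Cox6a2 and Cox6a1 (-0.18 to 0.10; p = 0.563), by -0.032 for Cox7a1 and Cox7a2 (-0.17 to 0.11; p = 0.645) and by -0.020 for Cox4i1 and Cox4i2 (-0.16 to 0.12; p = 0.755). Over the 7 isoform pairs tested, these 4 had adjusted p = 0.333, 0.753, 0.753 and 0.755. Without knockout replicate 5 the Cox8 pair had an exact permutation p = 0.0346. The intervals are wide beside the estimates and do not show that the forms changed alike.

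Complex V joins a proton channel in the membrane to a catalytic head. Of its 17 genes 14 lay lower and the median change was -0.067, or a level 4.54% lower, and 5 of them had an unadjusted p under 0.05. Atp5g1, Atp5g2 and Atp5g3 encode subunit c of the rotor ring, each with a presequence of its own that is removed on import. Atp5g1 lay at a lowest, median and highest log2 level of 11.74, 11.87 and 11.93 in knockout and of 11.95, 12.01 and 12.06 in wild type. The 2 genotypes were apart on all 12 arrays, with a change of -0.15 ± 0.0448, or a level 9.57% lower (SE, limma, adjusted p = 0.707). Atp5g3 ran from 12.33 to 12.51 in knockout (median 12.43) and from 12.47 to 12.59 in wild type (median 12.55), a change of -0.10 ± 0.045 (SE; adjusted p = 0.812), with 4 knockout arrays below the wild type range.

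For Atp5g2 the genotypes differed by less than the spread of the arrays. It ran from 11.82 to 11.90 in knockout (median 11.86) and from 11.81 to 11.91 in wild type (median 11.85), a change of 0.0095 ± 0.0407. Measured on each array, Atp5g1 minus Atp5g2 averaged 0.0013 ± 0.0712 in knockout and 0.16 ± 0.0593 in wild type (SD, n = 6). The genotypes differed by -0.15 in this quantity (95% interval -0.24 to -0.070; two-sided exact permutation test, p = 0.00433, adjusted p = 0.0303 over the 7 isoform pairs), though knockout replicate 5 lay above wild type replicate 2. In fluidics runs 1, 2 and 3 it was -0.17, -0.12 and -0.17. Atp5g3 minus Atp5g2 differed by -0.11 (-0.22 to -0.012; exact permutation p = 0.0346, adjusted p = 0.121), and with each array left out in turn its exact p lay between 0.0216 and 0.0693, over 0.05 in 8 of 12 cases. Atp5g1 minus Atp5g3 differed by -0.041 (-0.13 to 0.046; exact permutation p = 0.325, adjusted p = 0.568). The pairs were chosen with earlier results of these data known, and Atp5g1 had the smallest p of the 50 genes, so the tests of its pairs are not independent of that choice.

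**Figure D2:**
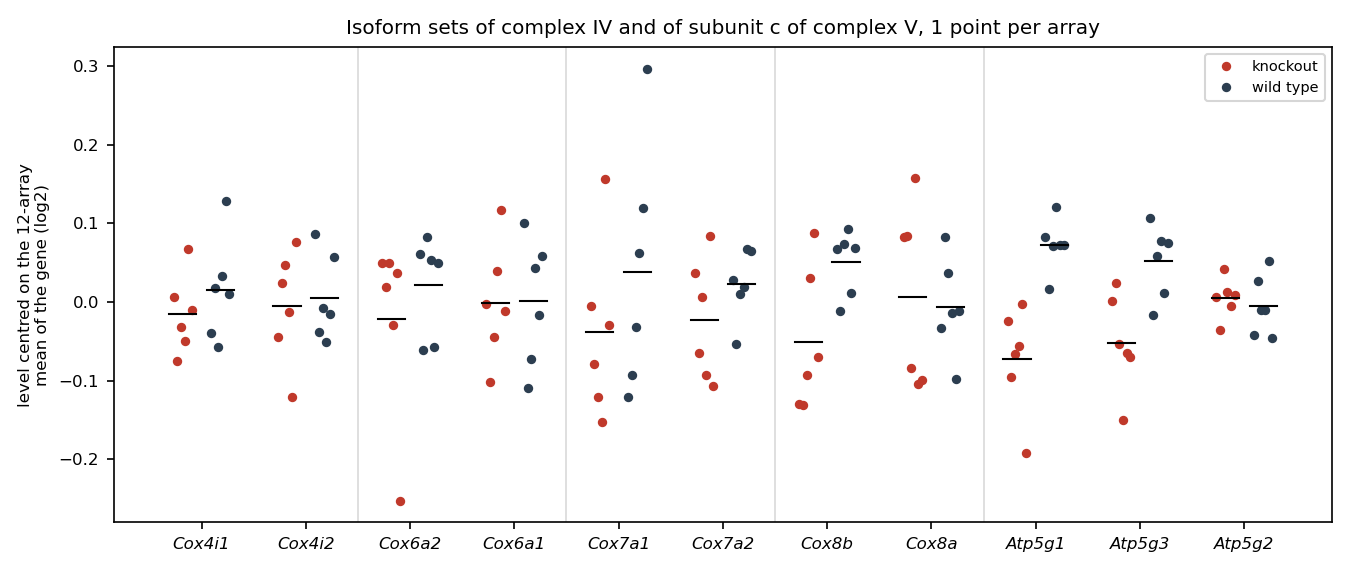
Level of each isoform gene on each array (points, log2, centred on the 12-array mean of the gene), with lines at the group means, for 6 knockout and 6 wild type arrays. The groups are apart for Atp5g1, where the change was -0.15, and overlap for Atp5g2, where it was 0.0095.

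The promoters of the subunit c genes are shown because these genes encode the same kind of subunit. Of the pairs among them only Atp5g1 and Atp5g2 passed, in a test that was not independent of the choice of pair. The windows are on chromosome 11 at chr11:96075582-96075881, chromosome 15 at chr15:102670998-102671297 and chromosome 2 at chr2:73911277-73911576, all on the minus strand (RefSeq, GRCm38.p6). Capitals mark the same motifs, NRF1 in Atp5g2 and, in Atp5g3, first ERR and then NRF1.
Atp5g1: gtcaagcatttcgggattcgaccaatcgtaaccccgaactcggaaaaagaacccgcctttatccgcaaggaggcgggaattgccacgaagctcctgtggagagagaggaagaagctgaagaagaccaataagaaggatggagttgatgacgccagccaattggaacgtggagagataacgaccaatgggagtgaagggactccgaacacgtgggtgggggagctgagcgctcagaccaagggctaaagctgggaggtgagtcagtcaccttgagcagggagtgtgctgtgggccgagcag
Atp5g2: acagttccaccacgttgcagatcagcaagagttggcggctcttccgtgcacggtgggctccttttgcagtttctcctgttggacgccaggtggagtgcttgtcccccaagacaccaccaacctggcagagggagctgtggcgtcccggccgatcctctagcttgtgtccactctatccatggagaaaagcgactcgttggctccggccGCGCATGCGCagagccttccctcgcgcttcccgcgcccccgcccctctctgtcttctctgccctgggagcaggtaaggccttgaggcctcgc
Atp5g3: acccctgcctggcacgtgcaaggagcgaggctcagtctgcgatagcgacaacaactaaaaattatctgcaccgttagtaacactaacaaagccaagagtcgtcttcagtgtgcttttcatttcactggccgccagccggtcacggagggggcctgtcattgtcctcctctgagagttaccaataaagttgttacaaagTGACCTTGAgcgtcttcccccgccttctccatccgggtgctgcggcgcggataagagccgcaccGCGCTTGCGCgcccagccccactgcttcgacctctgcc

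Within these letters Atp5g2 held 1 NRF1 match, Atp5g3 held 1 NRF1 and 1 ERR match, and Atp5g1 held 0 matches to any motif searched. A promoter window was found for 38 of the 50 genes. In them 6 motifs were searched on both strands: the NRF1 motif, TCAAGGTCA for ERR, CCGGAAGT for GABP, AAGATGGCG for YY1, TGACGTCA for CREB and TATAAA for the TATA box. The NRF1 motif was in 11 of the 38, or 28.9%, against 9.36% of the 9882 measured genes with a window and 5.19% of all 27025 genes with one. ERR was in 2 of 38, or 5.26%, against 0.344% of measured genes, GABP in 4, or 10.5%, against 7.24%, and YY1 in 2, or 5.26%, against 2.82%. CREB was in 2 against 2.995%, and the TATA box in 3, or 7.89%, against 11.9%. The muscle form Cox8b was among the 3 with a TATA box. No matches overlapped in the windows printed, and a match describes the letters only.

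The other complex V genes with an unadjusted p under 0.05 belong to the stalks and the head. Atp5j, coupling factor 6 of the outer stalk, ran from 11.71 to 11.95 in knockout (median 11.87) and from 11.88 to 12.13 in wild type (median 11.97), a change of -0.13 ± 0.0564 (SE; adjusted p = 0.812). Atp5o, the OSCP subunit that ties the stalk to the head, ran from 11.69 to 11.84 (median 11.76) and from 11.72 to 11.95 (median 11.89). Its change was -0.11 ± 0.0488 (SE; adjusted p = 0.812), while a dimmer Atp5o probe set gave 0.19. Atp5d, subunit delta of the central stalk, ran from 12.02 to 12.18 (median 12.09) and from 12.14 to 12.28 (median 12.21), a change of -0.10 ± 0.0454 (SE; adjusted p = 0.817) and its second probe set gave -0.030. In all 3 genes 6 of 6 knockout arrays lay below the wild type median, and the genotypes overlapped.

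The catalytic subunits Atp5a1 and Atp5b gave -0.056 and -0.072, and the central stalk subunits Atp5c1 and Atp5e -0.058 and -0.044. In Atp5b, knockout replicate 4 alone, at 12.09, lay far below the other knockout arrays, and without it the change was -0.024. Of the outer stalk and membrane subunits, Atp5pb gave -0.094, Atp5mpl -0.072, Atp5j2 -0.067, Atp5md -0.062 and Atp5l -0.059. The other Atp5pb probe set, almost as bright, gave 0.034, and that of Atp5j2 gave -0.070. Atp5h and Atp5k gave 0.0019 and 0.00053.

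A second reading came from the other probe sets of the same genes, 40 in all over 27 genes. Of these 26 were lower in knockout, against 52.6% of all genes at their brightest probe set, and 22 had the sign of the brightest probe set. Of the 31 above the median level of the array, 22 were lower, against 47.5% of genes above that level, and 18 had the same sign. Both counts of matching signs are near an even split. With the mean over each gene's probe sets in place of the brightest, 43 of 50 genes lay lower, with a median change of -0.048.

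Each complex was also read as a level per array, the mean of its genes after centring each on its average. For complex II it averaged -0.058 ± 0.0539 in knockout and 0.058 ± 0.0701 in wild type (SD, n = 6), for complex III with cytochrome c -0.028 ± 0.041 and 0.028 ± 0.0531, for complex IV -0.022 ± 0.0271 and 0.022 ± 0.018, and for complex V -0.034 ± 0.0381 and 0.034 ± 0.0355. The genotypes overlapped for each complex. Knockout replicate 6 had the lowest level for complexes II, IV and V, knockout replicate 2 the lowest for complex III, and wild type replicate 6 the highest for all 4.

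**Figure D3:**
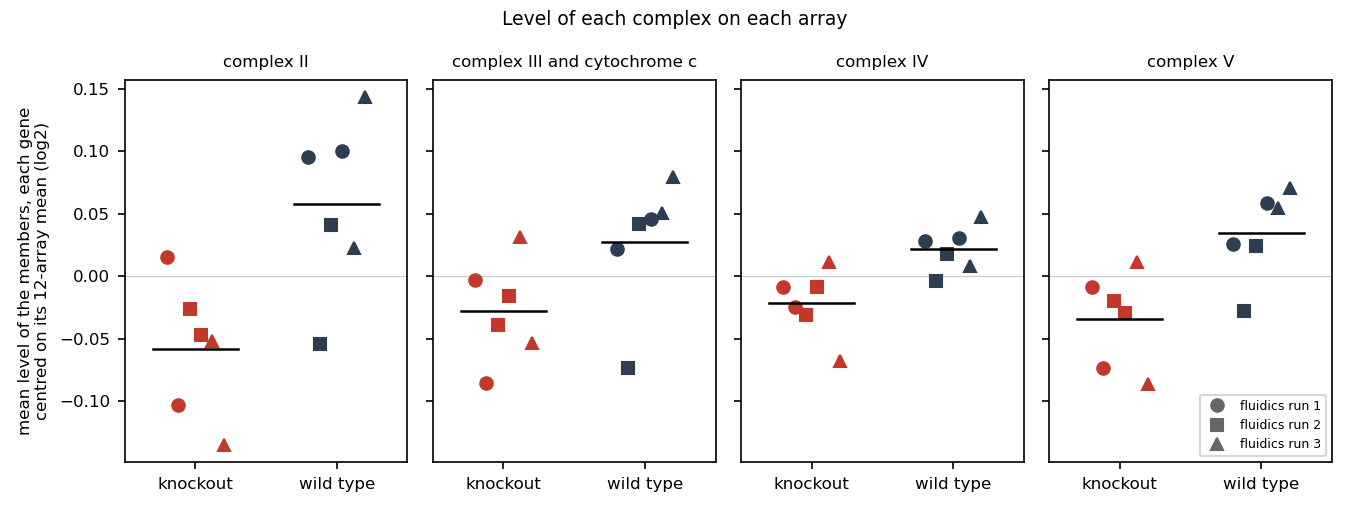
Level of each complex on each array (points, log2, mean of its genes after centring each on its 12-array mean), by genotype, with lines at the group means and the symbol giving the fluidics run. The knockout means lie below the wild type means for all 4 complexes, from -0.058 against 0.058 for complex II to -0.022 against 0.022 for complex IV, and single arrays overlap.

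The change differed in size between fluidics runs. The median over the 50 genes was -0.061, -0.022 and -0.095 in runs 1, 2 and 3, with 43, 35 and 44 genes lower against 52.1%, 53.3% and 46.5% of all genes. For complex II it was -0.15, -0.026 and -0.20, for complex III with cytochrome c -0.058, -0.024 and -0.067, for complex IV -0.045, -0.022 and -0.050, and for complex V -0.072, -0.026 and -0.11. In all 3 runs 30 genes were lower, a count for which the share over all genes was not taken. Of the 150 values of single genes within a run 24 had the opposite sign to the change over all arrays. Each run is part of those arrays, so agreement in sign is partly built in. The slow fibre list had a median of -0.27, 0.22 and -0.94 in the same runs, and its part in the result was not tested.

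**Figure D4:**
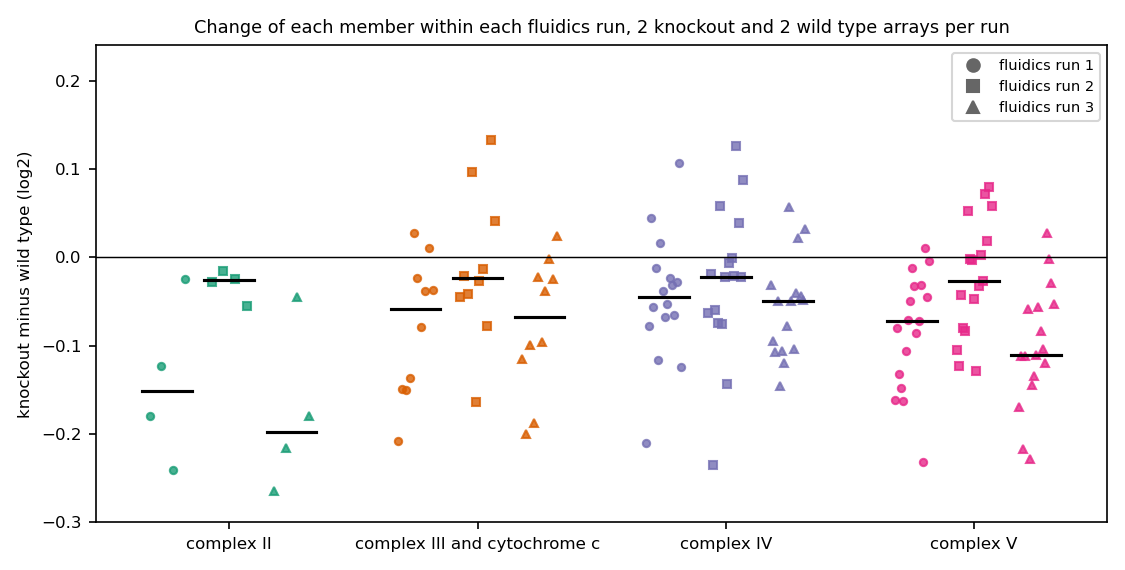
Change of each gene within each fluidics run (points, knockout minus wild type on the log2 scale, 2 against 2 arrays), by complex, with lines at the medians. The medians of run 2 lie nearest 0 in every complex, between -0.026 and -0.022, and those of run 3 reach -0.20 in complex II.

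Genes that work with these complexes were read beside them. Of 34 complex I genes 26 were lower, against 52.6% of all genes, with a median of -0.021. At an unadjusted p under 0.05, 3 were lower, against 2.86% of all genes: Ndufs1 (-0.13), Ndufc1 (-0.12) and Ndufs8 (-0.13). In 2 complex I genes the genotypes did not overlap, with knockout the lower, against 0.153% of all genes, so such a gap is not particular to Atp5g1. Of 13 genes that feed electrons into the chain, make ubiquinone or mature cytochrome c, 11 were lower, with a median of -0.070. Etfdh, which passes electrons from fatty acid oxidation to ubiquinone, gave -0.13 ± 0.0592, and Coq9, needed for ubiquinone synthesis, -0.11 ± 0.0445 (adjusted p = 0.817 and 0.801). Of 27 measured assembly factors, the 3 Sdhaf genes included, 15 were lower, with a median of -0.015. Ttc19, which acts in complex III, gave -0.18 ± 0.0532 and Uqcc2, a complex III assembly factor, 0.093 ± 0.0473 (adjusted p = 0.707 and 0.854).

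General mitochondrial genes were split in sign. Of 17 genes of mitochondrial structure, import, folding and carriers 8 were lower and 9 higher, with a median of 0.00032, among them the protease Lonp1 at 0.10 ± 0.0539 and the fusion protein Mfn2 at 0.088 ± 0.0464 (adjusted p = 0.865 for each). Citrate synthase, Cs, gave 0.016. Of 14 regulators of respiratory genes 7 were lower, with Ppargc1a, a coactivator of mitochondrial biogenesis, at -0.29 ± 0.0758 and Pprc1, its relative, at 0.18 ± 0.0592 (adjusted p = 0.564 and 0.769). The difference between these lists and the subunit genes was not tested.

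Fibre type and other cells were read in the same way. Of 13 slow fibre genes 12 were lower, with a median of -0.26 and a median SE of 0.24, and of 12 fast fibre genes 5 were lower, with a median of 0.0091. The calsequestrin Casq2 of slow fibres gave -0.12 ± 0.0625 and the slow myosin Myh7 -0.28 ± 0.323. Of 7 endothelial markers 5 were lower (median -0.054), of 7 macrophage markers 3 (median 0.0041), of 6 measured fat cell markers 2 (median 0.10) and of 3 measured Schwann cell markers 1 (median 0.10). At an unadjusted p under 0.05, Kdr of endothelium was lower (-0.22), and Cd74 of macrophages (0.18), Cidec of fat cells (0.26) and Pmp22 of Schwann cells (0.25) were higher. None of these genes passed the adjusted threshold, and the part of such cells in the result was not tested. The mean centred level of the fat cell markers spanned -0.069 to 0.21 in knockout and -0.26 to 0.15 in wild type, and that of the endothelial markers -0.14 to 0.076 and -0.047 to 0.14.

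**Figure D5:**
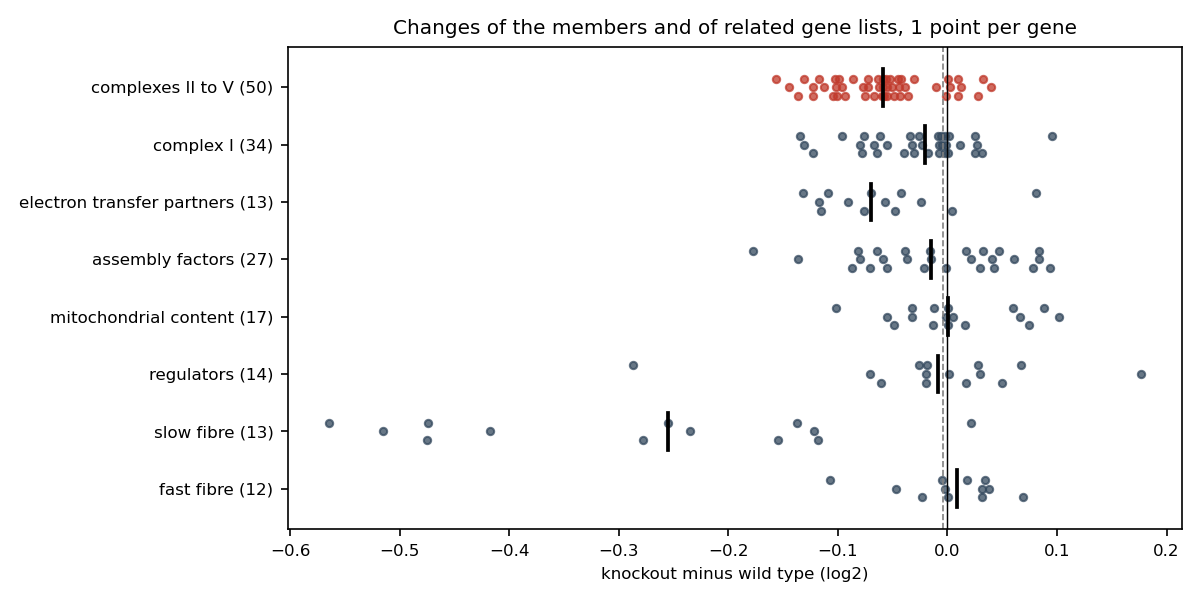
Change of each gene (points, knockout minus wild type on the log2 scale) for the 50 genes of complexes II to V and for 7 related lists, with the number of genes in brackets, bars at the medians and a dashed line at the median of all genes, -0.0043. The median of complexes II to V is -0.059, that of mitochondrial content genes 0.00032 and that of slow fibre genes -0.26.

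The genes varied together to a modest degree within the genotypes. After the genotype means were removed, the median correlation of 2 of the 50 genes over the 12 arrays was 0.206, against 0.029 over all pairs of genes. It was 0.303 within complex III and cytochrome c, 0.229 within complex V, 0.209 within complex II and 0.064 within complex IV. Between complexes it lay between 0.18 for complexes IV and V and 0.31 for complexes II and V, so genes of a complex were not closer to each other than to those of other complexes in every case. With complex I genes it was 0.259 and with slow fibre genes 0.142, while slow fibre genes had 0.739 among themselves. All these correlations share the 12 arrays and their normalization and are given as descriptions.

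The genes lie on 18 chromosomes. Of them 3, Sdhc, Cox5b and Sdhaf4, are on chromosome 1, as is Prkag3, and their changes of -0.086, -0.055 and -0.14 lay within the range of the rest.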

How the data were processed

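Total RNA of 12 muscle samples was measured on MOE430A arrays. The authors deposited linear intensities, and the submitters' processing notes name RMA, with no version given in the sources used here. RMA gives arrays nearly equal distributions, so it hides a shift common to most transcripts, and it shrinks differences of dim probe sets. Text fields of the array records, deposited with the values (listed as other), gave module, cage letter and hybridization time. The fluidics runs were inferred from that time. Genotype notes there matched 12 of 12 labels. Actb and Gapdh controls, 3' over 5' on the log2 scale, averaged -0.13 in knockout and -0.14 in wild type.

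Here log2 was taken, 64 array controls were left out, and knockout was compared with wild type over 22626 probe sets with limma 3.58.1 in R 4.3.3 (lmFit, eBayes, two-sided, genotype as the only term), with Benjamini-Hochberg adjustment over all of them and a threshold of 0.05. The fit was tested on simulated data. Isoform pairs used exact permutation tests (SciPy 1.17.1). Gene names came from the platform annotation, and 691 probe sets naming several genes were not used. Chromosomes and promoters came from RefSeq (GRCm38.p6), and the array files name no build. Of the 50 probe sets used, 4 end in _x_at and 7 in _s_at, marks of probes that can also read similar sequences. Of 11 lists with 140 genes, 119 were measured, 0 of the mitochondrially encoded subunits among them.

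The 50 genes, the lists and the tests were chosen with earlier results of these data known. Genes given in full were those with an unadjusted p under 0.05, the 2 of smallest p in each complex and the isoform sets, and from the lists up to 2 of smallest p, with Cs, Myh7, Myh4 and Ndufs8 named after their values were seen. Alternatives were the replicate number, fluidics run, module or cage as a block, median centring, a further quantile normalization, a level filter, a trended and robust prior, array weights, averaging the probe sets of each gene, and omitting each array. Module, cage and each run alone were added after seeing the data.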

Additional observations from a re-analysis of the deposited data

Results flagged for a closer look

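Of 110 sets of 6 arrays examined, from 50 genes and 5 group levels in each genotype, 8 held 1 array far from the other 5 by Dixon's ratio, and chance flags about 1 in 20. All values are log2 levels. Knockout replicate 6 was low for Sdhb (12.08, nearest 12.20), Cox6a2 (12.60, nearest 12.82) and Atp5mpl (10.91, nearest 11.05). Knockout replicate 4 was low for Uqcrh (10.50, nearest 10.62) and Atp5b (12.09, nearest 12.36). Wild type replicate 3 was high for Cyc1 (12.25, nearest 12.07), wild type replicate 2 low for Atp5o (11.72, nearest 11.87) and wild type replicate 1 low for Sdhaf1 (8.16, nearest 8.38).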

How the results depend on the processing

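In every fit with a test, 0 of the 50 genes passed. After median centring 40 of the 50 genes lay lower, with a median of -0.047. A further quantile normalization gave 48 lower, with a median of -0.086. The median change of all genes was 0.0074 and -0.0039 under these scalings, against -0.0043 in the main fit. With each array left out in turn, 40 to 46 genes lay lower, and the median change spanned -0.069 to -0.050 over all 50 genes, -0.13 to -0.088 in complex II, -0.068 to -0.043 in complex III with cytochrome c, -0.058 to -0.031 in complex IV and -0.083 to -0.055 in complex V. In fluidics run 2 alone the median was -0.022 over all 50, -0.026 in complex II, -0.022 in complex IV and -0.026 in complex V, and in run 3 alone -0.095 over all 50, -0.20 in complex II and -0.11 in complex V. The cause was not tested.

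With the replicate number as a block, 0 genes passed. Each number held 1 array of each genotype, so the block could not move the changes. The 42 lower genes and the median of -0.059 are therefore those of the main fit. Notes in the array records give both mice of a number the same cage letter for 6 of 6 numbers, with 3 letters in all and 1 letter shared by 3 numbers. In the values 2 of 6 same-numbered pairs correlated over 0.1 and 0 of 6 matched best with their own number. With the cage letter as a block 0 genes passed as well.

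Within fluidics runs 1, 2 and 3 alone the sign of 7, 9 and 8 of the 50 genes turned, though each run is part of the main fit. Under the other alternatives that kept all arrays, 480 of 498 single-gene values kept their sign. Many of these could not turn. The replicate, run and cage blocks, the trended and robust prior and the level filter leave the change of a gene as it was. Averaging probe sets does so for the 23 genes with 1 probe set. Signs turned by median centring for Cox4i2 (0.0012) and Cox6a1 (0.010), by array weights for Uqcr11 (-0.0045), and by the module block for Cox4i2 (0.0020) and Cox6a1 (0.021). By averaging probe sets they turned for Cycs (-0.056), Cox6c (0.023), Cox7c (0.0046), Cox8a (-0.020), Atp5o (0.037), Atp5h (-0.012) and Atp5k (-0.0089). By a further quantile normalization they turned for Uqcr11 (-0.014), Cox7a2l (-0.011), Cox8a (-0.028), Atp5g2 (-0.012), Atp5h (-0.020) and Atp5k (-0.031). With an array left out, values turned for Atp5e (-0.098 to 0.0045), Atp5h (-0.019 to 0.023), Atp5k (-0.023 to 0.021), Cox4i2 (-0.027 to 0.013), Cox6a1 (-0.025 to 0.019), Cox6a2 (-0.059 to 0.0038), Cox7a2l (-0.012 to 0.081), Cox8a (-0.018 to 0.034), Uqcr11 (-0.011 to 0.036) and Sdhaf1 (-0.013 to 0.052). The same held for the pairs Cox4i1 and Cox4i2 (-0.060 to 0.0062), Cox6a2 and Cox6a1 (-0.069 to 0.0032) and Cox7a1 and Cox7a2 (-0.065 to 0.012).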
